A study of Mus musculus with 18 samples.

Results

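Genes of cholesterol synthesis and sterol handling were followed across whole testis of 4 mouse genotypes. The list named 30 genes: 19 enzymes and cofactors of synthesis, 5 regulators of the SREBP system, 3 lysosomal genes, 2 genes of cholesterol ester storage and hydrolysis, and 1 exporter. All probes annotated to these genes were taken, 54 of the 45281 on the array, and a probe was kept where 4 or more arrays detected it at p under 0.01. That left 36 probes for 22 genes, of 10798 genes tested in all. Hmgcs1, Acat2, Fdft1 and Soat1 had no probe named for them and were not analysed here. Mvk, Sc5d, Srebf1 and Abca1 had probes that stayed below the detection rule. Their probes were detected on 0 arrays, except the Sc5d probe on 1. The tested gene nearest the limit was Lipa, with 7 arrays detected, followed by Tm7sf2 with 9; a second Lipa probe, with 3, was left out. A member that is bright in 1 genotype only could still pass this rule, so the tested genes are not all members.

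The groups, all 12-week-old mice of a cross between FVB/N and C57/BL6, were Fshr mutant/Lhr null testes (5 arrays, called the double mutant below), Lhr null testes (5 arrays), Fshr mutant testes (4 arrays) and wild type testes (4 arrays). Lhr stands for the receptor of luteinizing hormone (LH), which Leydig cells carry, and Fshr for that of follicle stimulating hormone (FSH), found on Sertoli cells. Table headers write the mutant allele as Fshr-CAM; what the mutation does and which promoter drives the allele are stated neither there nor in the labels. By its title the study asked about transcripts under the control of FSH or LH in the testis and about crosstalk between these hormones. Separate animals behind the arrays are not stated in the labels, and p-values then describe only the spread between samples, which may be technical.

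Cholesterol is built from acetyl-CoA through mevalonate, squalene and lanosterol, and lanosterol is then trimmed by oxidation, reduction and isomerization to cholesterol. When endoplasmic reticulum sterol is low, the escort protein SCAP carries SREBP transcription factors to the Golgi for activation, and the INSIG proteins hold SCAP back when sterol is plentiful. Leydig cells use cholesterol from synthesis, lipoproteins and stored esters to make testosterone. Germ cells also transcribe genes of the late pathway, and Cyp51 is known for high expression in spermatids.

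Promoter windows of 4 members are shown as examples. Msmo1 and Hsd17b7 had their lowest levels in the double mutant, while Cyp51 and Insig1 had theirs in the Lhr null. Other members shared each of these orders. Each window runs from 250 bases before the transcript start to 50 after it, 5′ to 3′ along the gene, from RefSeq on GRCm38.p6. Capitals mark a match to TCACNCCAT (a form of the sterol regulatory element), CCAAT (the NF-Y box) or TGACGCA (a near variant of the cAMP response element) on either strand, so ATTGG is CCAAT on the other strand.
Msmo1, chr8:64733529-64733828, minus strand: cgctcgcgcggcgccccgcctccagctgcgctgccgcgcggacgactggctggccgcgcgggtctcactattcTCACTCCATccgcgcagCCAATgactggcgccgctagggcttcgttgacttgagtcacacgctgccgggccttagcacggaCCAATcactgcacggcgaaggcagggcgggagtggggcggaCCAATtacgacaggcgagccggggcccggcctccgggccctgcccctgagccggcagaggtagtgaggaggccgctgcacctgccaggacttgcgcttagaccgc
Hsd17b7, chr1:169969156-169969455, minus strand: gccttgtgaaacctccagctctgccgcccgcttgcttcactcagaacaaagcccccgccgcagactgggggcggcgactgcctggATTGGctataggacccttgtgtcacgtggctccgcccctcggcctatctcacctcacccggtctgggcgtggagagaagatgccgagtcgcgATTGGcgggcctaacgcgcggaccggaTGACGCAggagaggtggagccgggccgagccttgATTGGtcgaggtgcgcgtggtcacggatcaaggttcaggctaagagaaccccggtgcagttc
Cyp51, chr5:4104648-4104947, minus strand: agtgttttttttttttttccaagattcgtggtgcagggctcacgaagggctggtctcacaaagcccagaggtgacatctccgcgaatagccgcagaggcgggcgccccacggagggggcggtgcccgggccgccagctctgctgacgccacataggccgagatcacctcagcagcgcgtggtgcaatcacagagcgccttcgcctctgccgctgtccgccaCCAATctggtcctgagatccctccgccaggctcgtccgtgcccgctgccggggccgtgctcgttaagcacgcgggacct
Insig1, chr5:28071162-28071461, plus strand: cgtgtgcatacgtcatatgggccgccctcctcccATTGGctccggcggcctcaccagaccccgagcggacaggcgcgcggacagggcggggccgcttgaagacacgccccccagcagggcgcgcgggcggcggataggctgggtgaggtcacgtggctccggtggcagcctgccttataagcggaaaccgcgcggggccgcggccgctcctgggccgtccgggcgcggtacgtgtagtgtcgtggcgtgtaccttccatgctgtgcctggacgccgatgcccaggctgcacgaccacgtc
Msmo1 held 1 TCACNCCAT and 3 CCAAT matches, Hsd17b7 held 3 CCAAT and 1 TGACGCA, and Cyp51 and Insig1 held 1 CCAAT each. Windows were given for 26 of the 30 genes, 35 windows in all, since some genes have several starts. CCAAT stood in 22 of these 35 windows, or 62.9%, against 37.4% of all 32851 windows of that length. TCACNCCAT stood in 2 member windows (Msmo1 and Srebf2), and in 0.764% of all windows. TCACNCCAC, the other form searched, stood in 1 (Hmgcs1), and in 1.24% of all. TGACGCA stood in 3 (Hsd17b7, Soat1 and Srebf2), and in 2.12% of all. TGACGTCA and TGACGTGA stood in 0 member windows, and in 1.79% and 0.441% of all. No motif searched contains another, and the last 3 named share their first 5 letters. A match is a run of letters, and nothing is drawn from it about a factor.

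Between 15482 and 18950 probes were detected per array, and precision is limited by having 4 or 5 arrays a group. The array labelled double mutant replicate 2 stood apart: its Fshr level was 5.68 on the log2 scale, against 8.45 to 9.25 on the other double mutant arrays and 5.16 to 5.85 in wild type. Results on the double mutant are therefore given with and without it where leaving it out changed the call of a member. In Lhr null testes the Fshr probe read 7.57 to 8.34, and in Fshr mutant testes 8.44 to 8.74. Markers of each testis cell type were detected, but Stra8 (spermatogonia), C1qa (macrophages), Cdh5 and Kdr (endothelium) were detected on no double mutant array, and Stra8 on no Fshr mutant or wild type array and Cdh5 on no Fshr mutant array. Summed linear intensities set the Lhr null apart for several cell types, while the sums of the spermatocyte and endothelial genes overlapped between genotypes. Such sums follow the brightest genes. At an adjusted p under 0.05 in limma, 3 of 6 spermatocyte genes were higher and 1 lower in Lhr null than in wild type. Of 7 Sertoli genes 6 were higher and 1 lower, and of 6 macrophage genes 3 were lower. Of all genes, 71.2% passed in that comparison. The 5 Leydig genes measured summed to 3217 to 10828 in the double mutant and 948 to 1871 in Lhr null. They summed to 11612 to 14346 in Fshr mutant and 13286 to 18699 in wild type. The 10828 stood on the array labelled double mutant replicate 2, and the next highest double mutant sum was 4395. Star and Hsd17b3 were detected on no Lhr null array and each on 1 double mutant array. Replicate 2 read 6.11 for Star and 7.03 for Hsd17b3. The other double mutant arrays read 4.41 to 4.51 and 4.45 to 4.95. The 8 elongating spermatid genes summed to 89746 to 94026 in the double mutant, 20207 to 55463 in Lhr null, 89910 to 96869 in Fshr mutant and 83426 to 99324 in wild type. The 7 Sertoli genes summed to 30013 to 39637 in Lhr null and to between 14065 and 17513 over the other 3 genotypes. The 6 spermatogonial genes summed to 3842 to 5502 in Lhr null and 1813 to 2055 in wild type, the 2 peritubular myoid genes to 4627 to 6795 in Lhr null and 2189 to 2684 in wild type, and the 6 macrophage genes to 786 to 2053 in Lhr null and 4128 to 5034 in wild type. In whole testis, fewer cells of a type and less RNA per cell cannot be told apart.

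In Lhr null testes the sterol genes moved in both directions, as did all genes tested. Of the 22 tested, 6 were higher and 7 lower in Lhr null than in wild type, 13 in all or 59.1%, at an adjusted p under 0.05 in limma. The background was 71.2% of all genes called, with 44.2% higher and 27% lower. Arrays of the 2 genotypes did not overlap for 12 members, and for 57.2% of all genes. The median member difference was -0.05 on the log2 scale, against 0.21 for all genes. The lower genes were Lipe, Insig1, Cyp51, Pmvk, Nsdhl, Fdps and Sqle, and the higher ones Scap, Erg28, Npc1, Mvd, Ebp and Lss. With cyclic loess in place of quantile normalization 4 members were higher and 9 lower, the median of all genes was 0.02, and 50.6% of called genes were higher, against 62% in the analysis as reported.

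When the Fshr mutation was added to the Lhr null, 16 of 22 members changed, or 72.7%, 6 upward and 10 downward. The background in this comparison was 74.2%, with 29.3% higher and 45% lower, so the share of members changed was near that of all genes. Arrays did not overlap for 14 members, and for 58.1% of all genes. Against wild type, the double mutant differed in 2 members, Msmo1 and Dhcr7, both lower, or 9.09% of the 22; the background was 1.28%, and 0.843% for lower genes. Arrays of these 2 genotypes did not overlap for 4 members (Msmo1, Dhcr7, Npc2 and Lipe), and for 8.44% of all genes. The double mutant and Lhr null are each compared with others here, so the comparisons share arrays.

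**Figure D1:**
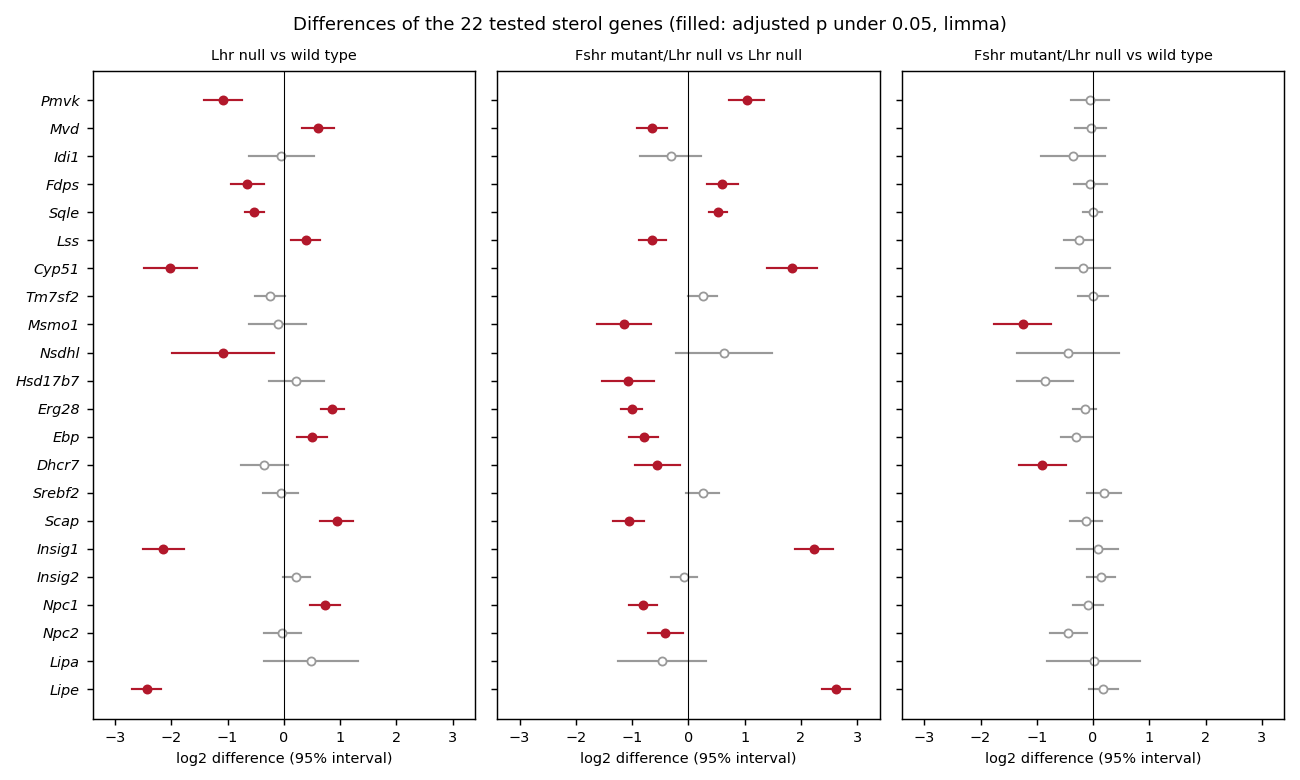
Log2 differences (points) with 95% intervals (lines) of the 22 tested genes in 3 comparisons, Lhr null with wild type (left), double mutant with Lhr null (middle) and double mutant with wild type (right); filled points passed an adjusted p of 0.05 in limma. Cyp51, Insig1 and Lipe lie farthest below 0 in the left panel (-2.02, -2.15 and -2.44) and farthest above 0 in the middle one (1.84, 2.23 and 2.62), and in the right one only Msmo1 and Dhcr7 are filled.

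Among the mevalonate genes, Pmvk and Fdps fell in Lhr null testes and Mvd rose, while Idi1 did not pass the test. Pmvk encodes phosphomevalonate kinase, which adds a second phosphate to mevalonate. Its log2 intensity, in replicate order here and below, was 7.06, 7.02, 6.88, 7.10 and 6.92 in the double mutant and 6.45, 6.14, 5.59, 5.85 and 5.79 in Lhr null. It read 7.01, 7.12, 6.59 and 6.95 in Fshr mutant and 6.87, 7.23, 7.32 and 6.78 in wild type. All 5 Lhr null arrays lay below every array of the other 3 genotypes. The difference from wild type was -1.09 (SE 0.16, 2.12-fold lower, adjusted p 8.59e-06), and that of the double mutant from Lhr null was 1.03 (SE 0.15, adjusted p 6.95e-06). Without normalization between arrays the last difference was 0.64.

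Fdps, which makes farnesyl diphosphate, showed a smaller change in the same direction. It read 10.07, 10.53, 10.28, 10.42 and 10.43 in the double mutant, 9.90, 10.14, 9.70, 9.49 and 9.51 in Lhr null, 10.40, 10.30, 10.59 and 10.52 in Fshr mutant and 10.28, 10.59, 10.57 and 10.15 in wild type. Lhr null lay below wild type on every array, narrowly on replicate 2. The fall in Lhr null was -0.65 (SE 0.14, adjusted p 0.000441), and the double mutant stood 0.60 above Lhr null (SE 0.13, adjusted p 0.000489), though 1 double mutant array lay within the Lhr null range. A second, dimmer Fdps probe did not pass the test in Lhr null (-0.24, adjusted p 0.331), and with the mean of both probes the double mutant stood 0.36 above Lhr null.

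Mvd, the decarboxylase that yields isopentenyl diphosphate, moved the other way. It read 5.61, 5.27, 5.35, 4.97 and 5.26 in the double mutant, 5.68, 6.05, 5.89, 6.05 and 6.02 in Lhr null, 5.56, 5.39, 5.22 and 5.62 in Fshr mutant and 5.30, 5.37, 5.60 and 5.07 in wild type. Lhr null arrays were the highest, with no overlap against the double mutant or wild type. Mvd was detected on all 5 Lhr null arrays, but on 1 of 5 double mutant, 3 of 4 Fshr mutant and 1 of 4 wild type arrays, so its size is uncertain. The difference was 0.60 for Lhr null against wild type (SE 0.13, adjusted p 0.000564) and -0.65 for the double mutant against Lhr null (SE 0.13, adjusted p 0.000152). In the authors' processed values these were 0.34 and -0.37. Idi1, the isopentenyl isomerase, ranged from 4.80 to 6.17 in the double mutant, 5.15 to 6.53 in Lhr null and 5.62 to 5.83 in wild type, with a difference of -0.04 between Lhr null and wild type (SE 0.27, adjusted p 0.891).

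**Figure D2:**
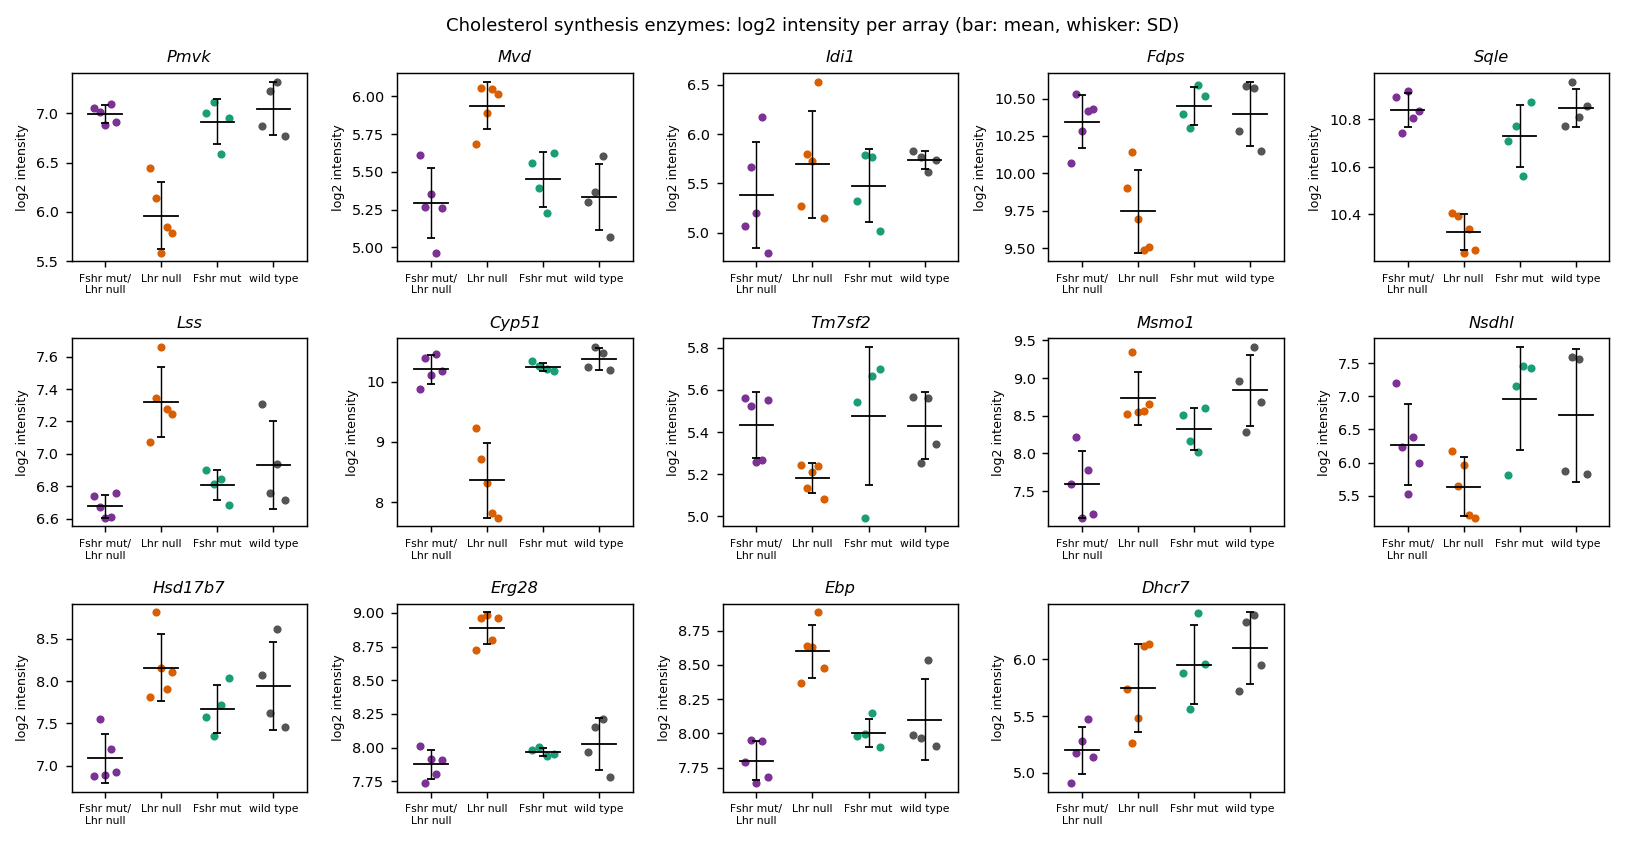
Log2 intensity of the 14 tested synthesis genes on each array (points), with the group mean (bar) and SD (whisker), double mutant at left and wild type at right in each panel; the vertical axes differ. Lhr null arrays lie apart below the other groups for Pmvk, Sqle and Cyp51 and above them for Erg28, and double mutant arrays hold the lowest Msmo1 and Dhcr7 means.

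Sqle and Lss, which oxidize squalene and close it to lanosterol, went in opposite directions in Lhr null testes. Sqle read 10.90, 10.74, 10.92, 10.80 and 10.84 in the double mutant, 10.40, 10.39, 10.24, 10.34 and 10.25 in Lhr null, 10.71, 10.77, 10.56 and 10.87 in Fshr mutant and 10.77, 10.96, 10.81 and 10.86 in wild type. The 5 Lhr null arrays were the 5 lowest of 18. Sqle fell by 0.53 in Lhr null against wild type (SE 0.08, adjusted p 1.5e-05), and the double mutant stood 0.52 above Lhr null (SE 0.08, adjusted p 8.28e-06). Its second probe gave -0.60 and 0.72, and with median scaling the brightest probe gave -0.85 and 0.88.

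Lss read 6.74, 6.67, 6.61, 6.61 and 6.76 in the double mutant, 7.07, 7.34, 7.66, 7.28 and 7.24 in Lhr null, 6.90, 6.81, 6.84 and 6.68 in Fshr mutant and 7.31, 6.76, 6.94 and 6.71 in wild type. Wild type replicate 1 lay inside the Lhr null range, while no double mutant array did. The difference was 0.39 for Lhr null against wild type (SE 0.12, adjusted p 0.0087) and -0.64 for the double mutant against Lhr null (SE 0.12, adjusted p 7.23e-05). The first of these calls depended on the probe and the scaling: a second probe, detected on 5 arrays, gave -0.31, and the mean of both probes 0.04 (adjusted p 0.777). Cyclic loess gave 0.15 (adjusted p 0.272), and no normalization between arrays gave 0.40 (adjusted p 0.119). With the mean of probes the double mutant differed from Lhr null by -0.24 (adjusted p 0.0529).

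From lanosterol to cholesterol, 2 of the 8 tested genes fell in Lhr null testes (Cyp51 and Nsdhl) and 2 rose (Erg28 and Ebp). Cyp51, lanosterol 14-demethylase, fell 4.04-fold. It read 9.88, 10.39, 10.10, 10.46 and 10.17 in the double mutant, 9.22, 8.71, 8.31, 7.82 and 7.74 in Lhr null, 10.33, 10.26, 10.20 and 10.17 in Fshr mutant and 10.25, 10.57, 10.48 and 10.20 in wild type. Lhr null arrays lay below all 13 others and spanned a wider range, 7.74 to 9.22, than the arrays of any other genotype. The difference was -2.02 for Lhr null against wild type (SE 0.23, adjusted p 4.24e-07) and 1.84 for the double mutant against Lhr null (SE 0.21, adjusted p 4.83e-07), while the double mutant and wild type differed by -0.18 (SE 0.23, adjusted p 0.743).

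Erg28, a scaffold protein that holds the C-4 demethylation enzymes together in yeast, was higher in Lhr null testes by 0.86 (SE 0.10, 1.81-fold, adjusted p 3.74e-07). It read 8.02, 7.74, 7.91, 7.80 and 7.91 in the double mutant, 8.73, 8.96, 8.99, 8.80 and 8.96 in Lhr null, 7.98, 8.002, 7.94 and 7.95 in Fshr mutant and 7.97, 8.15, 8.21 and 7.78 in wild type. Every Lhr null array lay above every other array. The double mutant stood 1.01 below Lhr null (SE 0.09, adjusted p 2.71e-08), and the other 2 probes gave -1.04 and -0.99 for that comparison.

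Ebp, the X-linked sterol isomerase, read 7.79, 7.95, 7.64, 7.95 and 7.68 in the double mutant, 8.37, 8.64, 8.63, 8.88 and 8.48 in Lhr null, 7.98, 7.99, 8.15 and 7.90 in Fshr mutant and 7.99, 7.97, 8.54 and 7.91 in wild type. Lhr null arrays were higher than all others but wild type replicate 3. Ebp rose by 0.50 in Lhr null against wild type (SE 0.13, adjusted p 0.00234) and was 0.80 lower in the double mutant than in Lhr null (SE 0.12, adjusted p 1.3e-05). With cyclic loess the first was 0.26 and no longer passed (adjusted p 0.0793), and without normalization between arrays it was 0.43 and did not pass (adjusted p 0.166). Tm7sf2, a sterol 14-reductase, read 5.26 to 5.56 in the double mutant, 5.08 to 5.24 in Lhr null and 5.25 to 5.57 in wild type; it did not pass the test between Lhr null and wild type (-0.25, SE 0.13, adjusted p 0.0936), although the arrays did not overlap.

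Nsdhl, an X-linked dehydrogenase that acts with Msmo1 in C-4 demethylation, varied widely within genotypes. It read 7.20, 6.24, 5.53, 6.39 and 5.99 in the double mutant, 6.17, 5.65, 5.96, 5.21 and 5.16 in Lhr null, 5.82, 7.15, 7.47 and 7.43 in Fshr mutant and 5.87, 7.60, 7.57 and 5.83 in wild type. Wild type replicates 1 and 4 (5.87 and 5.83) lay far below replicates 2 and 3 (7.60 and 7.57), Fshr mutant replicate 1 stood apart below the other 3, and double mutant replicate 1 above its other 4. On the second probe the same arrays divided in the same way, with wild type at 5.996, 7.48, 7.66 and 5.72 and Fshr mutant at 5.63, 7.60, 7.67 and 7.68. The third probe gave 6.49, 7.23, 7.37 and 6.14 in wild type. Lhr null was lower than wild type by 1.08 (SE 0.43, adjusted p 0.0315), a call that was lost without Lhr null replicate 4 or 5 or wild type replicate 2 or 3 (adjusted p 0.066, 0.0698, 0.128 and 0.124). It was also lost with no background correction, an offset of 50, the authors' processed values, no detection filter, array weights or the replicate number as a block (adjusted p 0.0573 to 0.178).

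**Figure D3:**
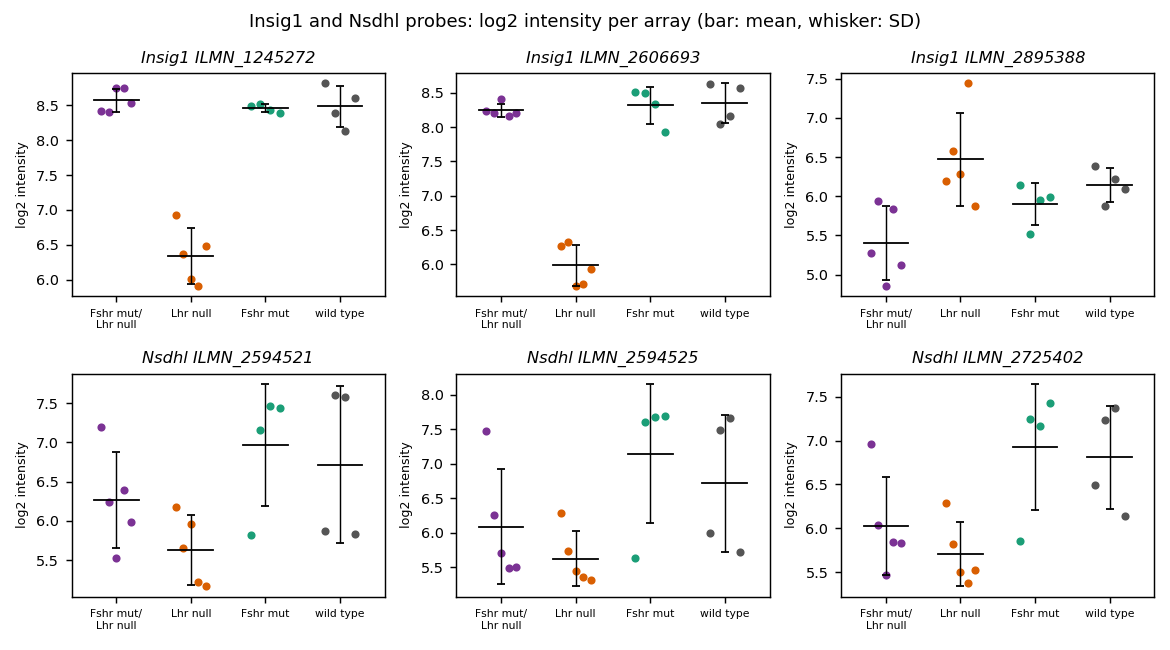
Log2 intensity on each array of the 3 Insig1 probes (top row) and the 3 Nsdhl probes (bottom row) past the detection rule, with the group mean (bar) and SD (whisker), double mutant at left and wild type at right. The third Insig1 probe lacks the low Lhr null values of the first 2, and the wild type Nsdhl values on the first probe fall into a low pair (5.83 and 5.87) and a high pair (7.57 and 7.60).

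The SREBP regulators held 1 gene that fell in Lhr null testes, Insig1, and 1 that rose, Scap. Insig1 encodes a protein that retains SCAP in the endoplasmic reticulum. It read 8.42, 8.41, 8.75, 8.74 and 8.54 in the double mutant, 6.93, 6.37, 6.01, 5.91 and 6.49 in Lhr null, 8.49, 8.52, 8.43 and 8.40 in Fshr mutant and 8.82, 8.40, 8.13 and 8.60 in wild type. The highest Lhr null value, 6.93, lay below the lowest value of the other genotypes, 8.13. The fall was -2.15 (SE 0.17, 4.43-fold lower, adjusted p 1.45e-08), and the double mutant stood 2.23 above Lhr null (SE 0.16, 4.70-fold, adjusted p 3.6e-09). A second probe, ILMN_2606693, gave -2.36 and 2.26.

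The third Insig1 probe, ILMN_2895388, moved the other way. It read 5.28, 5.94, 4.85, 5.83 and 5.12 in the double mutant, 6.20, 6.57, 6.28, 7.44 and 5.87 in Lhr null, 6.15, 5.52, 5.96 and 5.99 in Fshr mutant and 6.38, 5.88, 6.22 and 6.09 in wild type. The double mutant arrays were lower than Lhr null as a group, with an overlap of 1 array in each. The double mutant was 1.07 below Lhr null on this probe (adjusted p 0.000932), and Lhr null differed from wild type by 0.33 (adjusted p 0.279). With the mean of the 3 probes past the detection rule Insig1 still fell in Lhr null, by 1.39, and the double mutant stood 1.14 above it.

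Scap, the escort of SREBP, read 6.10, 6.12, 6.17, 6.69 and 6.41 in the double mutant, 7.24, 7.36, 7.43, 7.47 and 7.31 in Lhr null, 6.30, 6.52, 6.27 and 6.16 in Fshr mutant and 6.17, 6.63, 6.71 and 6.17 in wild type. Each Lhr null array lay above each array of the other 3 genotypes. Scap rose by 0.94 in Lhr null against wild type (SE 0.14, adjusted p 9.21e-06) and was 1.06 lower in the double mutant than in Lhr null (SE 0.13, adjusted p 9.57e-07). A second Scap probe gave 1.48 and -1.56.

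Insig2, a second SCAP retention protein, read 10.56, 10.25, 10.45, 10.22 and 10.24 in the double mutant, 10.31, 10.35, 10.66, 10.34 and 10.45 in Lhr null, 10.39, 10.12, 10.0002 and 10.42 in Fshr mutant and 10.30, 10.23, 9.96 and 10.31 in wild type. Lhr null and wild type did not overlap, though narrowly, and the difference of 0.22 did not pass (SE 0.12, adjusted p 0.0953). With the mean of the 2 Insig2 probes past the detection rule the difference was 0.53 (adjusted p 0.0119). Srebf2, the SREBP that acts mainly on cholesterol synthesis genes, read 6.24 to 7.01 in the double mutant, 6.09 to 6.75 in Lhr null and 6.27 to 6.59 in wild type. It did not pass the test between Lhr null and wild type (-0.06, SE 0.15, adjusted p 0.739), whereas its second probe gave -0.38 (adjusted p 0.0107) and, for the double mutant against Lhr null, 0.68 (adjusted p 4.02e-05).

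**Figure D4:**
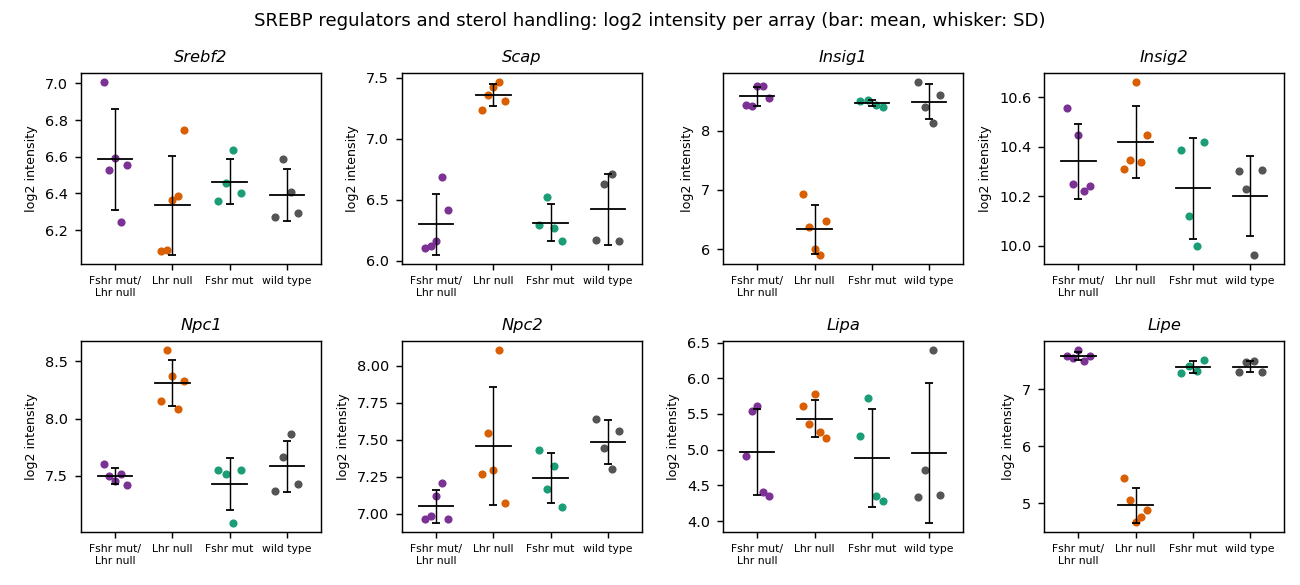
Log2 intensity of the 8 tested SREBP and sterol handling genes on each array (points), with the group mean (bar) and SD (whisker), double mutant at left and wild type at right; the vertical axes differ. Lhr null arrays lie apart below the other groups for Insig1 and Lipe and above them for Scap and Npc1.

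Of the lysosomal genes, Npc1 rose in Lhr null testes and Npc2 and Lipa did not pass the test. NPC1 and NPC2 move cholesterol out of the lysosome, and Lipa encodes the acid lipase that frees it from esters. Npc1 read 7.61, 7.50, 7.46, 7.51 and 7.43 in the double mutant, 8.15, 8.60, 8.38, 8.09 and 8.33 in Lhr null, 7.55, 7.52, 7.09 and 7.55 in Fshr mutant and 7.37, 7.66, 7.86 and 7.43 in wild type. Lhr null arrays lay above all others. The rise was 0.73 (SE 0.13, adjusted p 5.6e-05; 0.47 with cyclic loess), and the double mutant was 0.81 below Lhr null (SE 0.12, adjusted p 8.08e-06). Of 7 probes named for Npc1, 3 passed the detection rule, and the rest were detected on 0 arrays. The other 2 that passed gave 0.49 and 0.51 for Lhr null against wild type.

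Npc2 read 6.96, 6.98, 7.12, 7.21 and 6.97 in the double mutant, 7.27, 7.55, 7.29, 8.11 and 7.07 in Lhr null, 7.43, 7.17, 7.32 and 7.05 in Fshr mutant and 7.64, 7.44, 7.30 and 7.56 in wild type. Double mutant arrays lay below all wild type arrays, yet the difference of -0.44 did not pass (SE 0.16, adjusted p 0.177). Against Lhr null the double mutant was 0.41 lower (SE 0.15, adjusted p 0.0197), a call lost with cyclic loess (-0.19, adjusted p 0.243) and without Lhr null replicate 4 (-0.25, adjusted p 0.0548). Lipa read 4.91, 5.54, 5.62, 4.41 and 4.35 in the double mutant, 5.61, 5.36, 5.78, 5.25 and 5.17 in Lhr null, 5.19, 5.72, 4.35 and 4.28 in Fshr mutant and 4.34, 4.72, 6.40 and 4.36 in wild type. Detection was reached on 4 Lhr null arrays and on 1 array of each other genotype. Lhr null differed from wild type by 0.48 (SE 0.39, adjusted p 0.286), or by 0.96 without wild type replicate 3 (adjusted p 0.0153). Lipa met the detection rule only through its Lhr null arrays, and most other arrays were not above background. No difference is therefore read from these values.

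Lipe, hormone-sensitive lipase, splits stored cholesterol esters, and male mice that lack it are infertile. It read 7.58, 7.55, 7.70, 7.50 and 7.58 in the double mutant, 5.44, 5.05, 4.67, 4.76 and 4.88 in Lhr null, 7.28, 7.41, 7.32 and 7.52 in Fshr mutant and 7.31, 7.48, 7.50 and 7.31 in wild type. The highest Lhr null value, 5.44, lay below the lowest of all others, 7.28, and the probe was detected on 1 Lhr null array and on all 13 others. Of 3 probes named for Lipe only this 1 passed the detection rule. ILMN_3111326 and ILMN_2552000 were detected on 0 arrays of any genotype. Lipe fell by 2.44 in Lhr null against wild type (SE 0.12, adjusted p 3.02e-10) and was 2.62 higher in the double mutant than in Lhr null (SE 0.12, adjusted p 5.41e-11). With 4 of the 5 Lhr null arrays not above background these sizes are uncertain, and in the authors' processed values the 2 differences were -1.54 and 1.68.

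Of the 7 genes that fell in Lhr null, Cyp51, Insig1, Pmvk, Lipe, Sqle and Nsdhl had their highest Lhr null value on the same array, Lhr null replicate 1, and Fdps had its highest on replicate 2 (10.14, against 9.90 on replicate 1). The elongating spermatid sum of replicate 1 was 55463, against 37353, 28382, 20207 and 21506 on replicates 2 to 5, and its round spermatid sum was 14930, against 11529, 9458, 9142 and 10626. The part of spermatid content in these results was not tested. Without replicate 1 the differences from wild type were -2.23 for Cyp51, -2.29 for Insig1, -1.21 for Pmvk and -2.56 for Lipe. Sertoli, spermatogonial and peritubular myoid sums were higher, and macrophage sums lower, in Lhr null than in wild type. Among Lhr null arrays replicate 1 had the lowest Sertoli, spermatogonial and peritubular myoid sums (30013, 3842 and 4627). It also had the highest macrophage sum (2053), so it lay nearest wild type for these cell types as well. Their part was likewise not tested. How many of all lower genes had their highest Lhr null value on replicate 1 was not counted.

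Msmo1, Dhcr7 and Hsd17b7 had their lowest levels in the double mutant. Of the 22 tested members they lay farthest below wild type there, by measured differences of -1.25, -0.90 and -0.85. A lowest mean in the double mutant was not particular to them. Mvd, Idi1, Lss, Erg28, Ebp, Scap and Npc2 had it too. Msmo1 (Sc4mol in older annotation) starts the removal of the C-4 methyl groups, Hsd17b7 reduces the ketone that this leaves, and Dhcr7 makes cholesterol in the last step. Msmo1 read 7.59, 8.22, 7.15, 7.78 and 7.20 in the double mutant, 8.52, 9.34, 8.55, 8.57 and 8.66 in Lhr null, 8.51, 8.17, 8.02 and 8.61 in Fshr mutant and 8.96, 8.29, 9.41 and 8.69 in wild type. Every double mutant array lay below every Lhr null and wild type array, and the highest of the 5 was the array labelled replicate 2. Msmo1 was 1.25 lower in the double mutant than in wild type (SE 0.24, 2.38-fold, adjusted p 0.0227) and 1.14 lower than in Lhr null (SE 0.23, adjusted p 0.000211), while Lhr null and wild type differed by -0.11 (SE 0.24, adjusted p 0.702). Against Fshr mutant the double mutant differed by -0.74 and did not pass (SE 0.24, adjusted p 0.448), nor did it without the array labelled replicate 2 (-0.90, adjusted p 0.134). Without the array labelled replicate 2 the difference from wild type was -1.41 (adjusted p 0.00331).

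Dhcr7 read 4.91, 5.18, 5.28, 5.48 and 5.14 in the double mutant, 5.74, 5.27, 5.48, 6.12 and 6.14 in Lhr null, 5.88, 5.57, 6.41 and 5.96 in Fshr mutant and 5.72, 6.33, 6.39 and 5.95 in wild type. It was not above background on any of the 5 double mutant arrays, and it was detected on all wild type and Fshr mutant arrays and on 4 of 5 Lhr null arrays. The double mutant thus has only a bound. Set against the lowest detected signal of each double mutant array, Dhcr7 was at least 1.41-fold lower there than in wild type. Against Lhr null it was at least 1.11-fold lower. These bounds were not tested. The limma test used the measured values, with differences of -0.90 from wild type (SE 0.20, adjusted p 0.0351) and -0.55 from Lhr null (SE 0.19, adjusted p 0.0135). The call against Lhr null was lost with cyclic loess (adjusted p 0.088). Measured means were 5.20 in the double mutant, 5.75 in Lhr null, 5.95 in Fshr mutant and 6.10 in wild type.

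Hsd17b7 read 6.87, 7.55, 6.88, 7.20 and 6.92 in the double mutant, 7.81, 8.82, 8.15, 7.91 and 8.11 in Lhr null, 7.57, 7.35, 7.72 and 8.04 in Fshr mutant and 8.07, 7.62, 8.61 and 7.45 in wild type. Double mutant arrays lay below all Lhr null arrays, and the array labelled replicate 2 was again the highest of them. It was 1.07 lower in the double mutant than in Lhr null (SE 0.22, adjusted p 0.000269), and the difference of -0.85 from wild type did not pass (SE 0.23, adjusted p 0.0822). Without the array labelled replicate 2 that difference was -0.97 (adjusted p 0.0484).

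The 2 calls against wild type rested on few arrays. Msmo1 was not called without double mutant replicate 3 (-1.14, adjusted p 0.0626) or 5 (-1.15, adjusted p 0.069), or without wild type replicate 1 (-1.21, adjusted p 0.056) or 3 (-1.06, adjusted p 0.102). Dhcr7 was not called without double mutant replicate 1, 3 or 5 or wild type replicate 2, 3 or 4 (adjusted p 0.0503 to 0.141). Leydig gene sums on the double mutant arrays were 3702, 10828, 3335, 4395 and 3217 in replicate order, so the array with the highest Msmo1 and Hsd17b7 values also had the highest Leydig sum. Lhr null arrays had lower Leydig sums, 948 to 1871, with Msmo1 at 8.52 to 9.34. The part of Leydig content in these results was not tested.

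Between Fshr mutant and wild type testes 0 of the 22 members passed the test in limma, and 0 members had an unadjusted p under 0.05. Of all genes 0 were called, so the background was 0%. Fshr itself was thus not called, although it read 8.44 to 8.74 in Fshr mutant and 5.16 to 5.85 in wild type. Without the array labelled double mutant replicate 2, 3 genes were called, and 3 on these 2 groups alone. No member was without overlap, against 3.48% of all genes. The largest member difference was that of Msmo1, -0.51. Between double mutant and Fshr mutant 0 members passed and 3 had an unadjusted p under 0.05, with a background of 0.0278%. That background was 3 genes, and 57 without the array labelled double mutant replicate 2, where again 0 members passed. Dhcr7 was the member whose arrays did not overlap there, against 2.88% of all genes. The interaction, which asks whether the Fshr mutation moved a gene differently with and without Lhr, was called for 13 members (59.1%), with a background of 60.1%: 6 were positive (23.2% of all genes) and 7 negative (36.9%). Among the positive ones were Lipe (2.64, SE 0.17, adjusted p 5.8e-08), Insig1 (2.26, SE 0.24, adjusted p 1.97e-06) and Cyp51 (1.97, SE 0.32, adjusted p 5.73e-05); their order by size was different in the authors' processed values. Without the array labelled double mutant replicate 2 the Msmo1 interaction also passed (-0.79, adjusted p 0.0437), against -0.63 with it (adjusted p 0.121).

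A list of other genes, 36 listed and 23 tested, was counted in the same way. It held sterol genes, genes of other mevalonate branches (among them Fntb, Dhdds and Nus1), and Crem and Creb1. In Lhr null against wild type 9 were higher and 5 lower, 14 of 23 or 60.9%, against 71.2% of all genes, with a median of 0.29 against 0.21 for all genes. The lower ones included Nus1 and Crem. In the double mutant against Lhr null 4 were higher and 10 lower, or 60.9% against 74.2% of all genes, and against wild type 0 were called, with 1.28% of all genes called. Rnf139, an endoplasmic reticulum ubiquitin ligase, fell by 1.87 in Lhr null (SE 0.14, adjusted p 9.77e-09), and Nr1h3, which encodes the oxysterol receptor LXR alpha, fell by 1.05 (SE 0.16, adjusted p 1.02e-05). Stard5, a sterol carrier, fell by 0.75 (SE 0.15, adjusted p 0.000281). Mbtps1, the site-1 protease that cuts SREBP, rose by 0.84 (SE 0.14, adjusted p 2.71e-05), the cytochrome gene Cyb5b by 0.69 (SE 0.11, adjusted p 2.23e-05), and the sterol carrier Stard4 by 0.62 (SE 0.19, adjusted p 0.00847).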

How the data were processed

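Total testis RNA was measured on 18 Illumina bead arrays, summarised with GenomeStudio 1.7.0 per the submitters' processing notes; later steps: not given in the sources used here. In the deposited unnormalized table, per the file headers, stand each probe's mean bead intensity (linear), detection p-value and bead number; medians were 40 to 43 beads. The authors' deposited processed intensity values served as an alternative only.

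Intensities were background-corrected with normexp in limma 3.58.1 (R 4.3.3; background inferred from detection p-values, offset 16), quantile normalized and taken to log2. Folds of dim probes are understated. Symbols of 34807 probes were updated through gene identifiers. The brightest probe past the detection rule stood for a gene. All 18 arrays entered 1 linear model with 4 group means, moderated by eBayes and Benjamini-Hochberg adjustment over 10798 genes, called at 0.05. The fit was tested on simulated data. No 2 arrays held identical values. Values on every array are printed by rule for up to 3 genes of each role with the largest F, members at least 1 log2 unit from wild type in the double mutant and members with opposed probes; Nsdhl, Dhcr7 and Hsd17b7 were added after their values were seen. The members and lists were chosen with earlier results of these data known. For a fold bound, each dim array was set to its lowest detected signal or, if higher, to the probe's own value.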

Additional observations from a re-analysis of the deposited data

Results flagged for a closer look

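Chance alone sets about 1 in 20 groups apart by the gap test used here; of 88 sets of arrays, 1 for each gene and genotype, 3 had a single array far from the rest. These were Msmo1 at 9.34 on Lhr null replicate 2, Ebp at 8.54 on wild type replicate 3 and Npc1 at 7.09 on Fshr mutant replicate 3.

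For 13 members the difference made by the Fshr mutation was not the same with and without Lhr, by the interaction in limma. The interaction was positive for Lipe (2.64), Insig1 (2.26), Cyp51 (1.97), Pmvk (1.16), Sqle (0.64) and Fdps (0.54). For these genes the double mutant stood above Lhr null, while Fshr mutant differed from wild type by -0.13 to 0.06, with none called. The interaction was negative for Scap (-0.95), Erg28 (-0.95), Hsd17b7 (-0.80), Mvd (-0.76), Ebp (-0.70), Npc1 (-0.65) and Lss (-0.52). The Hsd17b7 value had an adjusted p of 0.0439 and lost its call without single arrays of each genotype, with median scaling, cyclic loess, no normalization between arrays, no detection filter or the replicate block. Calls were also lost for Lss (cyclic loess, no normalization between arrays and the mean of probes, adjusted p up to 0.345), Fdps (no normalization, the mean of probes and without Fshr mutant replicate 2 or wild type replicate 2 or 3, up to 0.141), Ebp (no normalization, 0.0746) and Npc1 (cyclic loess, 0.052).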

How the results depend on the processing

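Leaving out 1 array at a time, the number of members called was 12 to 14 for Lhr null against wild type (13 with all arrays), 15 to 17 for double mutant against Lhr null (16), 11 to 14 for the interaction (13), 0 to 3 for double mutant against wild type (2), and 0 in each fit for Fshr mutant against wild type and for the double mutant against Fshr mutant. Msmo1 and Dhcr7 were the calls of the double mutant against wild type, and that count was 1 with median scaling, 1 with no detection filter and 1 with probes detected on all 18 arrays (Msmo1 in each), and 4 with array weights (Msmo1, Hsd17b7, Dhcr7 and Npc2). With probes detected on all 18 arrays only 15 members were tested, and Dhcr7 was not among them. Array weights also gave 1 call, Dhcr7, between double mutant and Fshr mutant. With the replicate number as a block the double mutant differed from wild type in 0 members (Msmo1 adjusted p 0.0814, Dhcr7 0.0616). Deviations of the 25 same-numbered pairs correlated between -0.32 and 0.21, with 5 over 0.1. Differently numbered pairs were not compared, so whether the numbers pair the arrays was not settled. Insig2 reversed with median scaling, to 0.27 for double mutant against Lhr null (adjusted p 0.0498). Other settings kept the counts at 10 to 13 for Lhr null against wild type, 13 to 18 for double mutant against Lhr null and 9 to 13 for the interaction. The low ends of the first and second of these ranges came from the 15 members detected on all 18 arrays. Causes of these changes were not tested. Over all genes, 138 were called for double mutant against wild type, but 844 with array weights, 228 on these 2 groups alone, 21 with the replicate block and 0 to 214 with 1 array left out. For double mutant against Fshr mutant 3 were called, and 0 to 57 with 1 array left out, 77 with array weights and 10 without normalization between arrays. The 57 came without the array labelled double mutant replicate 2. For Fshr mutant against wild type 0 were called, and 0 to 4 with 1 array left out, 3 on these 2 groups alone and 6 with array weights. Without normalization between arrays the interaction had 4254 calls, against 6488. Among called genes, 62% were higher for Lhr null against wild type, as opposed to 50.6% with cyclic loess. No slide or scan is given in the sources used here, so a slide block was not run, and the interaction has no fit on fewer groups. Dim probes limit Lipe, Mvd, Dhcr7, Lipa, Idi1 and Tm7sf2.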
